A study of Mus musculus with 12 samples.

Results

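The transcriptional response to IL-4 in low-collagen gels was measured in 4 of the 12 RNA-seq libraries of the study, 2 from untreated cells and 2 from cells given IL-4, chosen by their sample labels. The cells were bone marrow–derived macrophages (BMDMs), which are grown in culture from marrow of wild-type mice (C57BL/6 as the strain, C57BL/6J as the source of the marrow) with medium conditioned by L929 cells, a source of the growth factor CSF1. They were embedded in floating three-dimensional gels of rat tail type I collagen at 2 mg/ml, without cytokine or with recombinant murine IL-4 at 20 ng/ml, and the labels give 24 hours in both groups while the protocol gives 16 to 28 hours. The other 8 libraries came from gels at 7 mg/ml (high collagen) and from tissue culture (TC) plates, each with 2 untreated and 2 IL-4 libraries, and they were used here only to ask where the low-collagen response differed. The age of the mice, and whether libraries of a group came from separate animals or cultures, were not given in the sources used here, so p-values measure only the spread between these libraries, which may be technical.

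IL-4 is the type 2 cytokine that turns macrophages toward alternative activation, the state associated with tissue repair and with defence against helminths. It binds a receptor made of IL-4Rα and either the common γ chain or IL-13Rα1, Janus kinases bound to the receptor then phosphorylate STAT6, and STAT6 enters the nucleus and switches on genes such as Arg1, Retnla (Fizz1), Chil3 (Ym1) and Mrc1. SOCS proteins, which STAT factors induce, feed back on this pathway, and IL-4 is also known to hold down part of the inflammatory program of macrophages.

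Every library had the transcripts of macrophages. The summed level of 14 macrophage markers was 64186 and 66181 TPM (transcripts per 1e6 transcripts) in the untreated libraries and 49373 and 51329 TPM with IL-4. Most of each sum came from Lyz2, the lysozyme of myeloid cells, at 38487 and 41170.5 TPM in the untreated libraries. By contrast, 12 neutrophil markers summed to 40.8 and 55.5 TPM and then 34.4 and 25.9 TPM, with Elane, Mpo and Ly6g listed at 0 in all 4 libraries. The sums of 8 eosinophil markers lay between 2.43 and 2.99 TPM, with Epx and Prg3 at 0, those of 9 mast cell and basophil markers between 0.124 and 1.38 TPM, with Cpa3, Mcpt4, Tpsb2 and Fcer1a at 0, and those of 13 lymphocyte markers between 8.45 and 14.3 TPM, with Trac and Ncr1 at 0. Sums of 8 dendritic cell markers, most of it from the widely expressed Bst2, ran from 447 to 649 TPM, and Dcn was at 0 among 10 fibroblast markers that summed to 2.93 to 10.3 TPM. The depth of the libraries cannot be read from TPM. In bulk samples, fewer cells of a type and less RNA per cell cannot be told apart.

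Of 34327 genes in the table, 11852 had a mean of at least 1 TPM over the gel libraries and were tested with limma on log2(TPM + 1). A gene was called at a Benjamini-Hochberg adjusted p-value under 0.2, the threshold the study used. IL-4 raised 1567 genes, 13.2% of those tested, and lowered 4784, or 40.4%. This imbalance depended on the scale. TPM divide a fixed total among the genes, and the median gene differed by −0.19 on the log2 scale between IL-4 and untreated libraries. When each library was instead divided by the median ratio of its genes to the average library, a shift of 0.19 on the log2 scale, the median became −0.0047, and 2791 genes (23.5%) were called higher and 2497 (21.1%) lower. A total of 2287 genes called lower in TPM were no longer lower after rescaling, and 0 of them were then called higher. Directions are therefore given below for the 1563 genes higher (13.2%) and the 2497 genes lower (21.1%) on both scales, and "rose" and "fell" refer to these. At least a 2-fold change on both scales was seen in 321 genes that rose (2.71%) and 302 that fell (2.55%), of which 284 and 263 were protein coding.

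**Figure D1:**
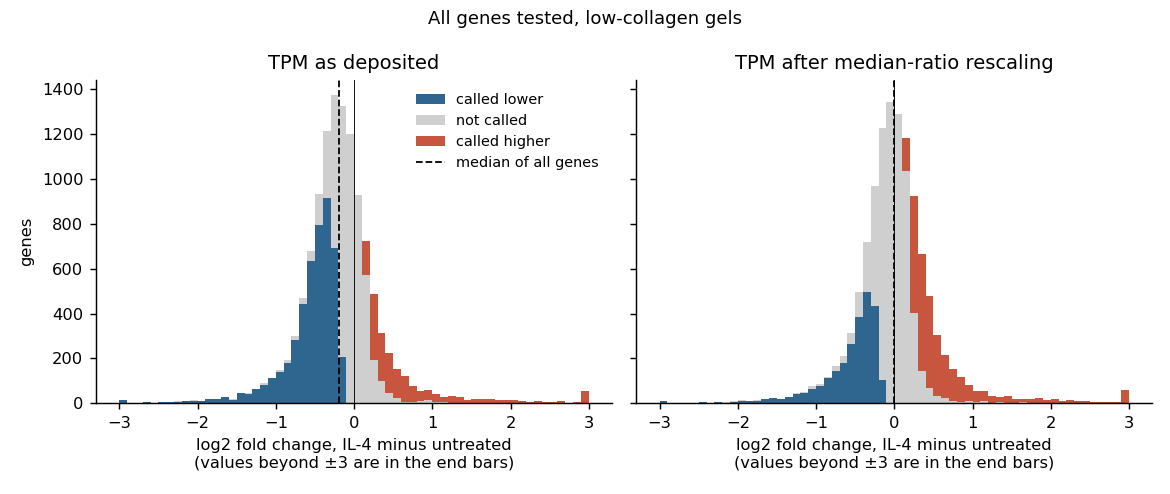
Number of the 11852 genes tested (y axis) by log2 fold change, IL-4 minus untreated, in bins (x axis), in TPM as deposited (left) and after median-ratio rescaling (right), with genes called lower, not called and called higher stacked in blue, grey and red. The dashed median lies at −0.19 on the left and next to 0 on the right, where the blue area is smaller and the red area larger.

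The largest rises were in secreted proteins and enzymes of alternative activation. Retnla, which encodes the secreted resistin-like protein FIZZ1, was 0 and 0.296 TPM in the untreated libraries and 7612 and 9073 TPM with IL-4, which made it the gene with the largest gain in TPM. Arg1, the arginase that turns arginine into ornithine and urea, started from a measurable level of 46.3 and 42 TPM and reached 7958 and 7672 TPM, 177-fold higher. Chil3, a chitinase-like lectin, went from 2.51 and 3.03 TPM to 1855 and 1817 TPM, a 662-fold difference of the means. In each of these genes the lowest IL-4 library stood far above the highest untreated library, which their choice by size and lack of overlap required. Both IL-4 libraries lay above both untreated ones in 2068 of the 11852 genes tested. Rnase2a, a secreted ribonuclease of the eosinophil-associated family, was listed at 0 in both untreated libraries and at 929 and 962 TPM with IL-4. Mgl2, a lectin receptor for galactose-type sugars, was 2.58 and 5.84 TPM and then 1669 and 1612 TPM. On the log2(TPM + 1) scale, which understates the change of genes near 0, the differences were 12.83 for Retnla, 9.89 for Rnase2a, 8.93 for Chil3, 8.37 for Mgl2 and 7.44 for Arg1, with standard errors of 0.20, 0.122, 0.134, 0.284 and 0.0792. The adjusted p-values by limma were 2.62e-08, 8.72e-09, 2.52e-08, 1.43e-06 and 5.58e-09. Reads of Chil3 may be shared with its paralog Chil4, since 28.9% of the 31-base words of its transcripts also occur in Chil4, and 19.3% of those of Mgl2 occur in Clec10a, while Arg1 shares 0.

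The other 7 of the 12 largest rises went from near 0 to between 40.6 and 183 TPM. Socs1, an inhibitor of Janus kinases, was 0.678 and 1.01 TPM untreated and 183 and 175 TPM with IL-4. Slc7a2, a transporter of cationic amino acids including arginine, was 1.12 and 1.55 and then 159 and 134 TPM. Tarm1, an activating immunoglobulin-like receptor of myeloid cells, was 0.390 and 0.721 and then 54.6 and 50.2 TPM. For these 3 genes the means differed 213-fold, 109.9-fold and 94.3-fold. Tmem26, a transmembrane protein, rose from 0.396 and 0.0277 to 76.9 and 74.3 TPM, and Pdlim1, a PDZ and LIM domain protein of actin filaments, from 0.531 and 0.403 to 60.5 and 68.7 TPM. The IL-4 libraries of both lay close together, and far above the untreated ones, as the choice of the largest rises required. Msx3, a homeobox gene, was listed at 0 in both untreated libraries and at 44.3 and 40.7 TPM with IL-4, and Cldn11, which encodes a tight junction protein, was 0.0847 and 0 and then 41.2 and 40.6 TPM. Genes that started near 0 were common among the large rises: 70 of the 321 genes that rose at least 2-fold were under 1 TPM in both untreated libraries, and 18 were listed at 0 in both. An exact permutation test of 2 against 2 libraries cannot give a p-value under 0.333, so calls for single genes rest on the variance that limma shares across genes.

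**Figure D2:**
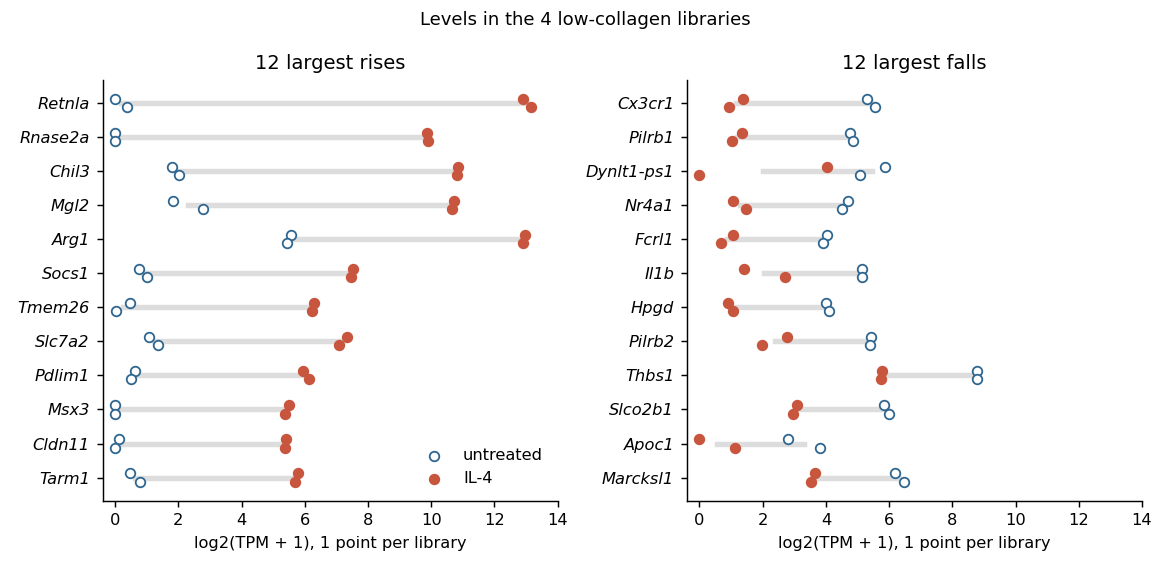
Level as log2(TPM + 1) of the 12 genes that rose most and the 12 that fell most (rows), with 1 open point for each untreated and 1 filled point for each IL-4 library, and a grey bar between the group means. Open and filled points are separated in all 24 genes, which their choice required, and the IL-4 points of Dynlt1-ps1 lie farthest apart, at 15.2 and 0 TPM.

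Since STAT6 carries the IL-4 signal to promoters, the promoters of the genes that rose most were searched for letters of the kind STAT6 binds. The 250 bases before the transcription start of 5 of the 6 largest rises are given, from RefSeq on GRCm38.p6 and read 5′ to 3′ on the strand of the gene. Capitals mark a match to TTCNNNNGAA, the spacing STAT6 prefers, or to TTCNNNGAA, the spacing of other STAT factors. Both motifs read the same on either strand.
Retnla, chr16:48842359-48842608, plus strand: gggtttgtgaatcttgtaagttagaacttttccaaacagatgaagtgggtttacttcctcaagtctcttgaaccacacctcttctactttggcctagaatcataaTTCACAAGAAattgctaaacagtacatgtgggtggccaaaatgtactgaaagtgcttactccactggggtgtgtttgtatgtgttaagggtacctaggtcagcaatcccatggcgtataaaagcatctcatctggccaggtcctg
Rnase2a, chr14:51256113-51256362, minus strand: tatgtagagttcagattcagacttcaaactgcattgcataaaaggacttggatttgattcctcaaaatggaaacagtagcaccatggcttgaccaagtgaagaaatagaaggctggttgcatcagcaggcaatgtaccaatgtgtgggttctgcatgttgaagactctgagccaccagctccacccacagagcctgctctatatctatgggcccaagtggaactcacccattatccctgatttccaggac
Chil3, chr3:106167565-106167814, minus strand: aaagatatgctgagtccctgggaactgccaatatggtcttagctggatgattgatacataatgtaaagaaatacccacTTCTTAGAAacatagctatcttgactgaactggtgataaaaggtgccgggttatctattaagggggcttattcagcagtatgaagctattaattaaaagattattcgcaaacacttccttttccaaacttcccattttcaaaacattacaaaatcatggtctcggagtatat
Mgl2, chr11:70130107-70130356, plus strand: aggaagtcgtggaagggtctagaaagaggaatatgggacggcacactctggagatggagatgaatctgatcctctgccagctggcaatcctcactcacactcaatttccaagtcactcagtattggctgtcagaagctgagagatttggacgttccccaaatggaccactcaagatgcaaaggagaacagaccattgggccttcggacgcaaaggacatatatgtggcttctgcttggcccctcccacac
Socs1, chr16:10785537-10785786, minus strand: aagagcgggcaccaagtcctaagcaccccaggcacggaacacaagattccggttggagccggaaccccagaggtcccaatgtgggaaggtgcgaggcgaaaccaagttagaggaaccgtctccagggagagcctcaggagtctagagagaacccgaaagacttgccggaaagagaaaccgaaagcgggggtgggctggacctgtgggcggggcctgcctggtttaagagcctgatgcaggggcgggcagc
The Retnla window holds 1 match of the STAT6 spacing, whose first base lies at −145 from the start, and the Chil3 window 1 match of the STAT spacing at −172. The windows of Rnase2a, Mgl2 and Socs1 hold 0 of either. Over windows from 250 bases before to 50 bases after each listed start, the STAT6 spacing was found in 25 of the 212 genes with an entry that rose at least 2-fold (11.8%), in 10 of the 191 that fell at least 2-fold (5.24%), and in 6.55% of the 8794 tested genes with an entry. The STAT spacing was found in 6.60%, 11.0% and 8.38% of the same groups. Another motif, TTTCNNTTTC on either strand, which is the core of the interferon-stimulated response element and whose matches may overlap a STAT match, was found in 9 of the genes that rose (4.25%), in 23 of those that fell (12%) and in 4.16% of those tested. Over all 27025 genes with an entry, the shares were 8.01%, 9.55% and 3.99%. A match is a run of letters and not a bound site, and genes with more listed starts have more windows.

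The largest falls took in receptors, lipid genes and inflammatory genes. Cx3cr1, the receptor for fractalkine that marks patrolling monocytes and many resident macrophages, dropped from 38.5 and 45.9 TPM to 1.57 and 0.928 TPM, 33.7-fold lower, with a log2 fold change of −4.27 ± 0.174 (SE) and an adjusted p-value of 3.10e-06 by limma. Thbs1, which encodes the matrix glycoprotein thrombospondin 1, was 438 and 435 TPM untreated and 53.8 and 53.1 TPM with IL-4, 8.16-fold lower, and its libraries agreed closely within each group. Il1b, the gene of the inflammatory cytokine IL-1β, was 34.4 and 34.2 TPM and then 1.64 and 5.48 TPM. Nr4a1, an orphan nuclear receptor of the immediate early class, was 25.1 and 21.6 TPM and then 1.08 and 1.80 TPM. Both fell to a small part of their untreated level although they had started from moderate levels. Hpgd, the enzyme that inactivates prostaglandins, was 15.2 and 16.3 TPM and then 0.861 and 1.08 TPM, and Slco2b1, an organic anion transporter, was 56.4 and 62.5 TPM and then 7.43 and 6.83 TPM. Pilrb1 and Pilrb2, paired activating receptors that share 42.8% of the words of Pilrb1 and so may share reads, both fell. Pilrb1 was 26.1 and 28.2 TPM untreated and 1.52 and 1.03 TPM with IL-4, and Pilrb2 was 42.4 and 40.7 and then 5.87 and 2.91 TPM. Fcrl1, a member of the Fc receptor-like family, Marcksl1, an actin-binding protein, and Apoc1, an apolipoprotein, completed the protein-coding genes, with log2 fold changes of −3.11, −2.73 and −2.75. The remaining gene was the pseudogene Dynlt1-ps1, whose words all occur in Dynlt1a. Its IL-4 libraries were 15.2 and 0 TPM, and its call was lost without untreated replicate 1 (adjusted p-value 0.202 by limma) and without IL-4 replicate 2 (0.285).

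Within the pathway that IL-4 engages, the differences of the binding chain and of STAT6 were small, and those of 2 genes of the SOCS family, Socs1 and Cish, were the largest. Il4ra, the ligand-binding chain, was 102 and 110.3 TPM untreated and 94.9 and 89 TPM with IL-4, a log2 difference of −0.21 in TPM that was 0.0007 after rescaling and had no call there. Stat6 differed by −0.25 in TPM and −0.039 after rescaling and was likewise called only in TPM. Il2rg, the common γ chain, rose from 84.9 and 95 to 123 and 112 TPM, and Il13ra1, the partner chain of the second receptor form, fell from 10.9 and 14.1 to 2.35 and 1.96 TPM. The 2 partner chains of Il4ra thus changed in opposite directions. Among the kinases, Jak2 rose by 1.09 on the log2 scale, Jak1 and Jak3 had log2 fold changes of −0.51 and −0.64, and Tyk2, at −0.048 in TPM and 0.16 after rescaling, was called only after rescaling. The suppressors of cytokine signalling differed among themselves. Besides Socs1, Cish rose from 1.96 and 2.91 to 74.4 and 68.9 TPM and Socs2 from 8.34 and 6.61 to 19 and 22.1 TPM, whereas Socs3 fell from 8.81 and 11.2 to 5.61 and 6.36 TPM. Irs2, an adaptor that couples the receptor to PI3 kinase, rose by 0.81, and the regulatory PI3 kinase subunit Pik3r1 and the phosphatase Ptpn6 had log2 fold changes of −0.56 and −0.47. In all, 9 of the 20 members tested rose and 6 fell, beside 13.2% and 21.1% of all genes tested.

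Transcription factors of alternative activation rose more often than they fell, with 13 of 23 higher and 4 lower, beside 13.2% and 21.1% of all genes tested. Their median log2 fold change was 0.41 in TPM beside −0.19 for all genes tested. Egr2, a zinc finger factor induced early by IL-4, was 4.09 and 4.97 TPM and then 74.3 and 95.6 TPM. Batf3, an AP-1 family factor known from dendritic cells, was 6.73 and 4.75 TPM and then 50.4 and 53.4 TPM. Irf4, an interferon regulatory factor required for many genes of alternative activation, was 1.65 and 1.62 TPM and then 19.6 and 16.7 TPM. The libraries of the 2 groups did not overlap in any of these 3 genes, which was common among all genes tested. Both IL-4 libraries lay above both untreated ones in 2068 of 11852 genes and below them in 6041. Among members outside the naming rule, chosen after their values were seen, Klf4, Bhlhe40, Myc and Pparg rose by 2.70, 2.62, 1.82 and 1.54 on the log2 scale. The members that fell were Nr4a1, Maf (−1.31), Egr1 (−0.86) and Cebpb (−0.56), and 2 of the list fell without IL-4 replicate 1.

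Of 36 textbook markers of alternative activation that passed the filter, 32 rose, 2 fell and 2 were called higher only after rescaling. The median log2 fold change was 2.78. The list was drawn up with these results known, so its count is a description. All 32 rises were at least 2-fold, and 8 members were under 1 TPM in the untreated cells. Mrc1, the mannose receptor, was already high untreated at 327 and 404 TPM and rose to 923 and 823 TPM, a 2.39-fold difference, much smaller than that of Arg1. The count that rose was also 32 with any 1 of the 4 libraries left out, while 1 fell without untreated replicate 1, untreated replicate 2 or IL-4 replicate 1. The 2 that fell were F13a1, the A subunit of coagulation factor XIII, at −1.34, and Fcrls, an Fc receptor-like protein, at −0.38. The summed level of the list was 2962 and 3091 TPM untreated and 26147 and 27013 TPM with IL-4. In arginine and polyamine metabolism 10 of 21 members rose and 1 fell. After Arg1 and Slc7a2 the largest were Ass1, which rebuilds arginine from citrulline, at 13.7 and 18 and then 47.7 and 37.4 TPM, and Gatm, which uses arginine to make the creatine precursor, at 25.8 and 28.4 and then 73.8 and 60.3 TPM. Odc1, the ornithine decarboxylase that opens polyamine synthesis, differed by −0.17 in TPM and 0.033 after rescaling and was not called on both scales, and it was named after its value was seen.

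Receptors for glycans and modified lipoproteins split in both directions, with 8 of 23 higher and 10 lower, beside 13.2% and 21.1% of all genes tested. Clec10a, a galactose-type lectin related to Mgl2, rose from 132 and 137 to 878 and 844 TPM, and Clec7a, the β-glucan receptor Dectin-1, from 143 and 135 to 496 and 488 TPM. Clec4n, which encodes the mannan receptor Dectin-2, fell from 206 and 223 to 38 and 45.2 TPM. The 2 receptors for fungal cell walls thus changed in opposite directions. Clec4d and Clec4e, also receptors for microbial glycolipids and named after their values were seen, fell with log2 fold changes of −1.78 and −1.74.

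Chemokines separated by kind, and their receptors went mostly one way, to be read beside the 13.2% higher and 21.1% lower of all genes tested. Of 18 chemokines that passed the filter, 9 rose, all of them CC chemokines, and 7 fell, of which 5, counting Ppbp, were CXC chemokines. Ccl8 was 0.395 and 0.730 TPM untreated and 57.8 and 43.4 TPM with IL-4. Ccl24, an attractant of eosinophils, was 3.13 and 2.25 and then 76 and 73.6 TPM, and Ccl12, a monocyte attractant, was 15.4 and 23.9 and then 200.0 and 188 TPM. Ccl7, which attracts monocytes as well, was 72.9 and 116 and then 689.6 and 663 TPM. All 4 had IL-4 libraries above both untreated libraries, as did 2068 of the 11852 genes tested. The other 5 rises were Ccl2, Ccl22, Ccl9 and Ccl6, with log2 fold changes of 2.02, 1.91, 1.43 and 1.36, and Ccl17, a ligand of Ccr4 on T cells that was listed at 0 in both untreated libraries and at 2.80 and 3.68 TPM with IL-4. The 7 falls were Cxcl10 (−2.15), Cxcl2 (−1.86), Cxcl14 (−1.48), Ppbp (−1.46), Ccl3 (−1.45), Ccl4 (−1.07) and Cxcl16 (−0.56), and Ccl5 and Pf4 were not called on both scales. Among 12 chemoattractant receptors tested 11 fell and 0 rose, with a median of −1.08 in TPM and −0.89 after rescaling, and 5 of the falls were at least 2-fold. C5ar1, the receptor for the complement fragment C5a, fell from 188 and 189 to 39.4 and 42.5 TPM, Ccr2, the receptor that brings monocytes into tissue, from 22.1 and 23.5 to 7.12 and 7.22 TPM, and Cxcr4, the receptor for Cxcl12, from 169 and 153 to 76.2 and 71.1 TPM. Their IL-4 libraries lay below both untreated libraries, as in 6041 of the 11852 genes tested. The formyl peptide receptors Fpr1 and Fpr2 had log2 fold changes of −1.81 and −2.06. Cmklr1 was the 1 of the 12 called lower in TPM but not after rescaling (−0.35 in TPM and −0.15 after rescaling).

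**Figure D3:**
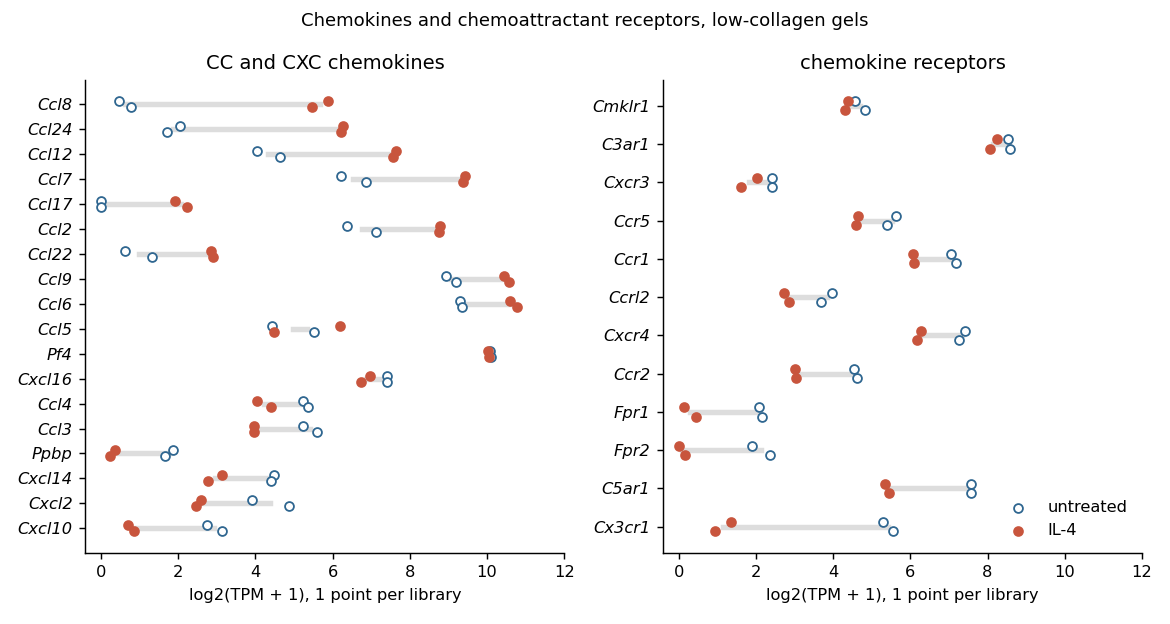
Level as log2(TPM + 1) of the 18 chemokines and 12 chemoattractant receptors tested (rows, ordered by log2 fold change), with 1 open point for each untreated and 1 filled point for each IL-4 library, and a grey bar between the group means. Filled points lie right of the open ones for the upper 9 chemokines, from Ccl8 to Ccl6, and left of them for every receptor.

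Genes of matrix and repair also moved in both directions, to be read beside the 13.2% higher and 21.1% lower of all genes tested. Fn1, which encodes fibronectin, rose from 20.3 and 25.6 to 607 and 547 TPM, a 25.1-fold difference, while Thbs1 fell. Mmp12, the macrophage elastase, rose from 61.6 and 62.4 to 189 and 207 TPM, and Lgals3, which encodes galectin-3, rose from 4074 and 3601 to 9735 and 10040.4 TPM. Of 24 matrix proteins and proteases tested, 11 rose and 8 fell. Among 16 growth factors 5 rose, or 3 without IL-4 replicate 1, and 5 fell. Hbegf, an EGF receptor ligand, was 0.394 and 0.243 TPM untreated and 16 and 15.7 TPM with IL-4, and Igf1, a factor for muscle and epithelial repair, was 242 and 245 and then 738 and 775 TPM. Vegfa, the main angiogenic factor, fell from 548 and 624 to 222 and 199 TPM, and Gdf15, a stress-induced member of the TGF-β family, from 26 and 25.9 to 10.8 and 9.58 TPM. Genes of macrophage fusion, by which IL-4 is known to form giant cells, rose in 11 of 18 cases and fell in 3. Atp6v0d2, a proton pump subunit needed for fusion, rose from 78.4 and 71 to 435 and 464 TPM, Acp5, the tartrate-resistant acid phosphatase of osteoclasts, from 2.85 and 2.14 to 13.9 and 13.5 TPM, and the tetraspanin Cd9 from 240.3 and 256 to 646 and 665 TPM. Of 46 genes of the actin cytoskeleton and adhesion, 14 rose, or 9 without untreated replicate 1 or IL-4 replicate 1, and 15 fell, and the largest changes were in integrin chains. Itgax (CD11c) rose from 2.67 and 1.81 to 94.6 and 86.8 TPM and Itgb3, the β3 chain, from 3.82 and 3.71 to 38.9 and 41.5 TPM, whereas Itga6, the α6 chain of laminin receptors, fell from 160.0 and 178 to 36.5 and 31.4 TPM. Actb, the gene of β-actin, named after its value was seen, differed by −0.19 in TPM and 0.016 after rescaling.

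Antigen presentation genes rose in 11 of 21 cases (52.4%) and fell in 6 (28.6%), beside 13.2% and 21.1% of all genes tested. Cd74, the invariant chain of MHC class II, rose from 46.4 and 44.9 to 654 and 607 TPM, and Pdcd1lg2, which encodes the PD-1 ligand PD-L2, was 0.584 and 0.180 TPM and then 32.9 and 34.8 TPM. Cd40 rose from 6.23 and 6.87 to 33.7 and 28.8 TPM, while Icosl, the ligand of ICOS on T cells, fell from 30.8 and 33 to 7.90 and 8.12 TPM. Costimulatory genes therefore changed in both directions. Of 13 complement genes 3 rose (23.1%) and 4 fell (30.8%). C3, the central component, rose from 29.7 and 39.9 to 228 and 155 TPM. Fc receptors and genes of phagocytosis fell in 13 of 26 cases (50%) and rose in 7 (26.9%). Fcgr1, the high-affinity IgG receptor, fell from 97.7 and 109.8 to 40.6 and 25.2 TPM. Of 2 related scavenger receptors, Stab1 fell from 726 and 736 to 294 and 312 TPM and Stab2 rose from 4.53 and 5.01 to 12.3 and 13.6 TPM.

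Genes of microbial sensing mostly fell where they were called. Of 24 Toll-like receptors and adaptors 12 fell and 2 rose, beside 21.1% and 13.2% of all genes tested. Tlr2, the receptor for bacterial lipoproteins, fell from 44.7 and 50.8 to 10.1 and 9.76 TPM, Cd14, a co-receptor for lipopolysaccharide, from 367 and 349 to 97.4 and 105 TPM, and Tlr7, a sensor of single-stranded RNA, from 120.0 and 134 to 55.5 and 52.1 TPM. The 2 that rose, Tlr4 and its adaptor Ticam2, had log2 fold changes of 0.50 and 0.33. Among 34 inflammatory cytokines and NF-κB targets 13 fell and 6 rose. Nfkbiz, an IκB protein that controls secondary inflammatory genes, fell from 13.9 and 14.5 to 2.70 and 2.70 TPM, and Tnf, named after its value was seen, had a log2 fold change of −1.85. Ccl2 and Cd40, both on this list, rose. Interferon-stimulated genes fell in 16 of 50 cases and rose in 2, with a median of −0.61 in TPM and −0.41 after rescaling, but this count depended on single libraries. Ifit3, an antiviral protein, was 24.3 and 71.5 TPM untreated and 15 and 4.85 TPM with IL-4, Rsad2, the antiviral enzyme viperin, was 27.9 and 53.1 and then 18.3 and 8.94 TPM, and Gbp7, a guanylate-binding protein, was 13.2 and 20.4 and then 7.66 and 5.45 TPM. Replicates differed by up to several fold in the first 2 of these genes. The summed level of the list was 2840 and 3738 TPM untreated and 2944 and 1769 TPM with IL-4, so the groups overlapped in this sum. Leaving out untreated replicate 2 or IL-4 replicate 2 left 4 genes lower, and leaving out untreated replicate 1 or IL-4 replicate 1 gave 24 or 29, and 5 rose without IL-4 replicate 2. Of the Toll-like receptor list 1 rose without IL-4 replicate 1.

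The main importer and the exporter of iron moved apart. Tfrc, the transferrin receptor for iron uptake, rose from 16 and 14.1 to 199 and 192 TPM, a 13-fold difference, and Slc40a1, which encodes ferroportin, the iron exporter, fell from 381 and 373 to 67.9 and 77.2 TPM, 5.20-fold lower. Slc11a1, the phagosomal metal transporter, fell from 432 and 399.9 to 163 and 157 TPM, and Hfe, a partner of the transferrin receptor, rose from 104 and 105 to 232 and 229 TPM. Of 17 iron genes 4 rose (23.5%) and 9 fell (52.9%), beside 13.2% and 21.1% of all genes tested. Antioxidant genes under NRF2 rose in 4 of 24 cases, or 2 without untreated replicate 2 or IL-4 replicate 2, and fell in 11. The falls included Gclm, a subunit of the glutathione-making ligase (82.7 and 96.3 and then 39.1 and 36.8 TPM), and the peroxiredoxin Prdx1 (1494 and 1606 and then 804 and 812 TPM).

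Lipid genes changed without a single direction. Among all genes tested 13.2% rose and 21.1% fell, beside 27.5% and 25% of fatty acid genes and 26.3% each of eicosanoid genes. Ch25h, which makes 25-hydroxycholesterol, rose from 3.27 and 4.04 to 61.7 and 53.5 TPM, and Abcg1, a cholesterol exporter, from 42.4 and 42.8 to 137 and 128 TPM. Abca1, another cholesterol exporter, named after its value was seen, fell from 158 and 180.4 to 67.1 and 60.6 TPM, and the apolipoprotein Apoc2 fell from 207 and 194 to 48.7 and 49.7 TPM. In all, 3 of 15 LXR targets and export genes rose and 6 fell. Sterol synthesis genes showed few calls, with 3 of 24 higher, or 1 without IL-4 replicate 2, and 1 lower. Of 40 genes of fatty acid uptake, storage and oxidation 11 rose and 10 fell, or 6 without IL-4 replicate 1 or 2. Fabp4, a fatty acid carrier, rose from 25 and 21.6 to 70.5 and 70.8 TPM, Cd36, a fatty acid and lipoprotein receptor, from 95.2 and 115 to 223 and 211 TPM, while Cpt1a, which controls entry of fatty acids into mitochondria, fell from 62.5 and 68.8 to 39.3 and 36.5 TPM. Of 19 eicosanoid genes 5 rose and 5 fell. Ptgs1, the cyclooxygenase COX-1, rose from 33.8 and 41.7 to 106 and 97.7 TPM, and besides Hpgd the synthase of prostaglandin D2, Hpgds, fell from 111 and 148 to 53.5 and 50.5 TPM and Pla2g7, a phospholipase that breaks down platelet-activating factor, from 46.9 and 44.3 to 13.6 and 14.2 TPM.

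Small shifts, mostly upward, ran through the genes of respiration, translation and lysosomes. Among all genes tested 13.2% rose and 21.1% fell, but calls varied with level. In the fifth of genes with the highest mean TPM, 27.9% rose and 19.4% fell. The lists were not matched for level, so the part of level in their counts was not tested. Of 76 nuclear genes of oxidative phosphorylation 55 rose and 0 fell, with a median of 0.23 in TPM and 0.44 after rescaling, and 0 changed 2-fold. Atp5b, a subunit of the ATP synthase, was 375 and 368 TPM and then 534 and 588 TPM. Of the 13 genes of the mitochondrial genome 2 rose and 0 fell, but 7 rose without untreated replicate 2 and 1 without untreated replicate 1 or IL-4 replicate 1. Of 24 genes of the tricarboxylic acid cycle 9 rose and 0 fell, among them Idh3a (9.0 and 11.4 and then 16.9 and 15.9 TPM). Cytosolic ribosomal proteins rose in 59 of 81 cases and fell in 0, with Rps2 at 1210.2 and 1135 and then 1615 and 1646 TPM, but this direction was not kept under quantile normalization, where 16 were higher and 10 lower, and 36 and 31 were higher when untreated replicate 2 or IL-4 replicate 2 was left out, respectively. Genes of lysosomes and the proton pump rose in 30 of 50 cases and fell in 3. Ctsz, a cysteine protease, went from 809.9 and 806 to 1948 and 1932 TPM and Atp6v1b2, a pump subunit, from 191 and 187 to 399 and 401 TPM. Genes of the unfolded protein response rose in 14 of 28 cases and fell in 1. Pdia4, a disulfide isomerase of the endoplasmic reticulum, rose from 66 and 70.6 to 334 and 289.5 TPM and Sdf2l1, a partner of the chaperone BiP, from 55.8 and 61.6 to 171 and 162 TPM. Of 36 proteasome genes 9 rose and 1 fell, or 0 without untreated replicate 1, IL-4 replicate 1 or IL-4 replicate 2, and the immunoproteasome subunit Psmb10 was the 1 that changed 2-fold, from 113 and 100.4 to 242 and 244 TPM.

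Glycolysis, growth and nuclear regulation showed mixed or few calls, to be read beside the 13.2% higher and 21.1% lower of all genes tested. Of 34 genes of glycolysis and the hypoxia response 11 rose and 8 fell, and leaving out untreated replicate 2, IL-4 replicate 1 or IL-4 replicate 2 left 6 higher and 5 lower. The list includes Pfkp, a phosphofructokinase, at 77 and 73.2 and then 128 and 127 TPM and Pfkfb3, which makes the activator of that enzyme, at 25.1 and 31 and then 12.4 and 12.5 TPM. In the pentose phosphate and one-carbon list 4 of 15 rose and 1, Pgd, fell (339 and 339.8 and then 222 and 211 TPM). Of 60 genes of the cell cycle and DNA replication 9 rose, 2 fell and 0 changed 2-fold. This list changed its balance with the scale, from 9 higher and 14 lower in TPM to 20 higher and 2 lower after rescaling. Cdkn1b, the cell cycle inhibitor p27, was among the falls at 65.1 and 72.6 and then 40.1 and 37.3 TPM. In that list 5 rose without untreated replicate 1 or IL-4 replicate 1, and up to 4 fell, without IL-4 replicate 2. Of 38 splicing factors 4 rose and 3 fell, with 0 higher without untreated replicate 1 or IL-4 replicate 1, 1 higher without IL-4 replicate 2 and 5 lower without untreated replicate 1. Chromatin regulators rose in 1 of 47 cases and fell in 18 (38.3%), beside 21.1% lower among all genes tested. In TPM alone 33 were lower, beside 40.4% of all genes tested. In the fifth of genes with the longest transcripts 29.8% fell, and the list was not matched for length. Hdac7, a class II histone deacetylase, fell from 10.5 and 8.74 to 4.26 and 2.83 TPM, and with 1 library left out 10 to 14 members of this list fell, the lowest count without untreated replicate 2 or IL-4 replicate 2.

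**Figure D4:**
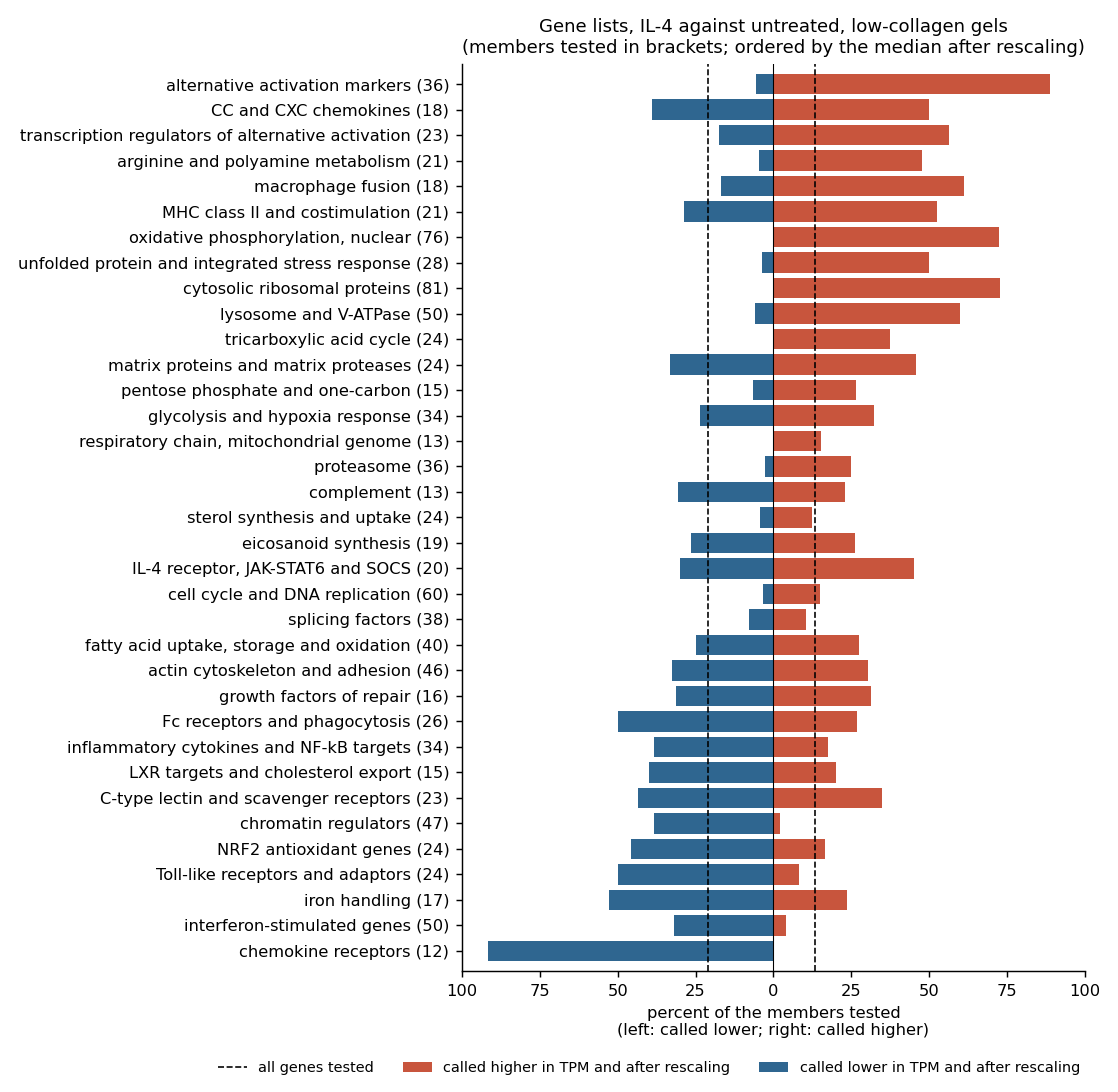
Share of each of 35 gene lists called higher (right) and lower (left) on both scales, in percent of the members tested, with dashed lines at the 13.2% and 21.1% of all genes tested. Alternative activation markers reach 88.9% higher and chemoattractant receptors 91.7% lower, and ribosomal and oxidative phosphorylation genes stand right of the dashed line with 0 lower.

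The markers of macrophages themselves changed too, as 3 of 14 rose and 6 fell, beside 13.2% and 21.1% of all genes tested. Aif1, which encodes the actin-bundling protein IBA1, fell from 118 and 136 to 47.2 and 41.9 TPM, and Mertk, a receptor for dying cells, from 88.1 and 105 to 60.1 and 48.6 TPM. Of 5 neutrophil markers tested 2 fell, namely Mmp8, a collagenase that was 12.1 and 16.3 TPM untreated and 7.74 and 5.94 TPM with IL-4, and S100a8, a calcium-binding protein at 11.8 and 12.5 and then 7.93 and 6.46 TPM, and without untreated replicate 2, IL-4 replicate 1 or IL-4 replicate 2 only 1 of the 5 fell. The 1 eosinophil and the 2 lymphocyte markers that could be tested were not called, and 0 mast cell markers passed the filter. Pecam1, an adhesion molecule of endothelium that is also made by leukocytes and the 1 red cell or endothelial marker tested, rose from 1.38 and 1.24 to 13.2 and 12.9 TPM. Cdh5, which defines endothelium, lay between 0.0455 and 0.703 TPM. Postn, 1 of 3 fibroblast markers tested, was listed at 0 untreated and at 4.46 and 8.03 TPM with IL-4, while Col1a1 was at most 0.127 TPM. Kmo, 1 of 2 dendritic cell markers tested, fell from 8.44 and 8.67 to 2.86 and 2.32 TPM. The parts of other cell types in the changes above were not tested.

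A few abundant transcripts carried much of the exchange in TPM. Over the genes tested, 3457 genes gained 136079 TPM together and 8384 lost nearly as much, and the 10 largest gains made up 27.3% of the gain and the 10 largest losses 34.2% of the loss. Next to Retnla and Arg1, the lysosomal precursor Psap gained from 11054 and 10335 to 16978 and 16646 TPM. Lyz2, the lysozyme of myeloid cells and the most abundant transcript of the untreated libraries, fell from 38487 and 41170.5 to 25899.8 and 27207 TPM, and Fth1, the heavy chain of ferritin, from 31339.9 and 28257 to 17165 and 16792 TPM. Apoe, the apolipoprotein secreted by macrophages, fell from 15171 and 14664 to 7944 and 7992 TPM, and Selenop, a secreted selenoprotein, from 5417 and 5807 to 1971 and 2105 TPM. The ferritin light chain Ftl1 was the most abundant transcript with IL-4, at 27465 and 29853 TPM. It was called higher only after rescaling (0.10 in TPM, 0.31 after rescaling), and 57.7% of its words occur in other genes. The share of all TPM in the 10 most abundant genes was 16.5% and 16.1% untreated and 13.8% and 14.3% with IL-4.

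The response was then set against that of BMDMs in high-collagen gels by the difference of the IL-4 effects in the same fit. That difference was called in 43 of 11852 genes, 0.363%, beside 1171 genes at an unadjusted p-value under 0.05. The log2 fold change with IL-4 was higher in low-collagen gels in 20 of them and lower, which includes deeper falls, in 23. After rescaling it was higher in 25 and lower in 14 of 39, so that this balance turned with the scale. Of the 12 largest rises 4 were larger in low-collagen gels. This count is a description, since the rises and falls were picked by the size of their effect in low-collagen gels. That choice tilts such differences toward larger effects in low-collagen gels. Retnla reached 7612 and 9073 TPM there and 1472 and 1152 TPM in high-collagen gels, a difference of 2.72 ± 0.283 (SE) in log2 fold change (adjusted p-value 0.0319 by limma). Rnase2a, Chil3 and Msx3 differed by 1.24, 1.49 and 1.21 (adjusted p-values 0.0919, 0.0632 and 0.153 by limma). Of these 4, the difference of Retnla was still called with any 1 low-collagen library left out (highest adjusted p-value 0.142 by limma). Rnase2a was lost without untreated replicate 2 and without either IL-4 replicate, Chil3 without either IL-4 replicate, and Msx3 without any 1 of the 4, with highest adjusted p-values of 0.402, 0.273 and 0.497 by limma. Arg1, at 6999 and 6307 TPM with IL-4 in high-collagen gels, differed by 0.078 ± 0.112 (adjusted p-value 0.854 by limma), and Socs1 by 0.62 ± 0.196 (0.415). Fn1 differed by 1.91 (0.0147 by limma, at most 0.0658 with 1 library left out) and was 55.3 and 55.1 TPM untreated and 368 and 357 TPM with IL-4 in high-collagen gels. Of the falls, Slco2b1 and Thbs1 were deeper in low-collagen gels, by −0.98 and −1.15, and the second was not called after rescaling (adjusted p-value 0.241 by limma). Both were lost without any 1 of the 4 libraries. Slc40a1, the iron exporter, was 298 and 299 and then 111 and 119 TPM in high-collagen gels, and its fall was deeper in low-collagen gels by −0.99 (0.0326 by limma, at most 0.160 with 1 library left out). Gpr162, an orphan receptor, fell from 72.2 and 69.6 to 21 and 20.6 TPM in low-collagen and was 62.4 and 60.4 and then 36 and 38.5 TPM in high-collagen gels, a difference of −1.01 (0.0319 by limma, at most 0.143). Of the 321 genes that rose at least 2-fold in low-collagen gels, 218 (67.9%) did so in high-collagen gels too, which is 76.2% of the 286 there. Of the 302 that fell, 128 (42.4%) did so in high-collagen gels, which is 65.6% of the 195 there. The count of 43 rested on single libraries, with 15 without IL-4 replicate 2 and 16 without untreated replicate 2, and it was 18 with the replicate number as a block.

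More genes differed between low-collagen gels and TC plates, where BMDMs lie on rigid plastic. Over all 12 libraries the IL-4 effects differed in 3319 of 11865 genes, 28% of those tested, with a log2 fold change that was higher in low-collagen gels in 1104 and lower in 2215, and after rescaling in 2918, with 1724 higher and 1194 lower. This split turned with the scale too. Of the 12 largest rises 10 differed, in both directions, and the choice by effect in low-collagen gels bears on this count as well. Retnla was 0.969 and 6.52 TPM untreated and 126 and 109.7 TPM with IL-4 on TC plates, so that its effect was 7.89 ± 0.678 (SE) larger in low-collagen gels on the log2 scale (adjusted p-value 0.000179 by limma). Pdlim1 and Socs1 were larger by 2.66 and 1.85 (0.000441 and 0.000597 by limma). Arg1 was smaller by a log2 difference of −1.92 ± 0.512 (0.0429 by limma), while its level with IL-4 was 3114 and 3069 TPM on plates and 7958 and 7672 TPM in low-collagen gels. Its untreated level was 1.76 and 7.09 TPM on plates, below the 46.3 and 42 TPM of the gels. Tmem26 and Msx3 were also smaller in gels, by −0.95 and −0.69, or by −0.68 and −0.37 after rescaling. AA467197, also known as NMES1, rose from 10.2 and 12.1 to 101 and 92.6 TPM in low-collagen gels and was 42.2 and 34.3 and then 15.3 and 12.5 TPM on plates, so that the response had opposite signs in the 2 cultures (4.41 ± 0.207, adjusted p-value 1.16e-05 by limma). Ms4a4a, a tetraspan protein of alternatively activated macrophages, was already 168 and 219 TPM in untreated low-collagen gels and rose to 339 and 346 TPM there, against 6.14 and 3.17 and then 169 and 174 TPM on plates. Of the falls, Nr4a1, Il1b and Hpgd were deeper in gels, by −2.43, −2.25 and −2.06, and all 3 were under 5 TPM in untreated cells on plates. Cx3cr1 fell in all 3 cultures, with log2 fold changes of −4.27, −4.06 and −4.85 in low-collagen gels, high-collagen gels and on TC plates. With 1 low-collagen library left out, the calls against TC plates given here for Retnla, Pdlim1, Socs1, Arg1, Tmem26, Msx3, AA467197, Nr4a1, Il1b and Hpgd were all kept. Of the genes that rose at least 2-fold in low-collagen gels 54.2% did so on TC plates, and of the 302 that fell 36.4% did so. The labels tie the culture to its own libraries, so the culture and any difference in handling cannot be told apart.

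Among the genes described above, the following were picked after their values were seen, for the contrast between the gels and the plates. C3 rose in low-collagen gels and was 22.3 and 20.1 TPM untreated and 9.91 and 12.1 TPM with IL-4 on TC plates, and its IL-4 effects differed by 3.31 ± 0.266 (SE) on the log2 scale. Ass1 was 133 and 127 and then 79.1 and 80.2 TPM on plates, a difference of 2.07 ± 0.185, and Il2rg was 157 and 173 and then 82 and 86.7 TPM, a difference of 1.34 ± 0.123. The direction of all 3 was thus upward in the gels and downward on the plates. Cpt1a had the opposite pattern, at 34.6 and 34.4 and then 46.2 and 48.5 TPM on plates and a difference of −1.22 ± 0.101. For Clec7a and Atp6v0d2 the untreated levels lay farther apart than the levels with IL-4. Clec7a was 143 and 135 TPM in untreated low-collagen gels and 19 and 23.2 TPM on untreated plates, and with IL-4 it reached 496 and 488 TPM in the gels and 443 and 445 TPM on the plates. Atp6v0d2 rose from 78.4 and 71 to 435 and 464 TPM in the gels and was 5.77 and 6.92 and then 317 and 321 TPM on the plates. Cd74 differed more with IL-4, at 654 and 607 TPM in the gels and 80.4 and 77.6 TPM on the plates, than untreated, at 46.4 and 44.9 and 13 and 14.9 TPM. The adjusted p-values of the 7 differences lay between 1.16e-05 and 0.000236 by limma, and all 7 were kept with 1 low-collagen library left out.

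**Figure D5:**
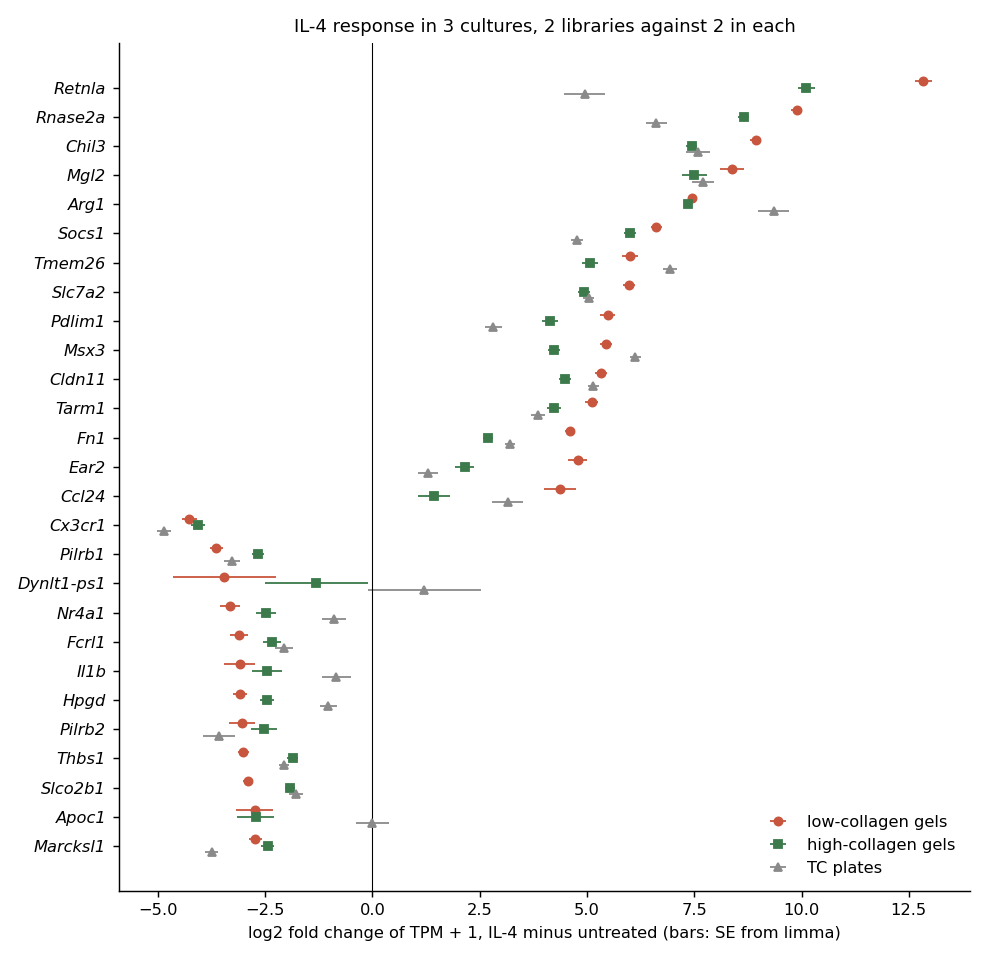
Log2 fold change (IL-4 minus untreated, log2(TPM + 1)) with its standard error in low-collagen gels, high-collagen gels and on TC plates for 15 genes that rose and 12 that fell in low-collagen gels. Retnla runs from 12.83 in low-collagen gels through 10.11 in high-collagen gels to 4.95 on TC plates, while Cx3cr1 is near −4 or lower in all 3 cultures.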

How the data were processed

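RNA was poly(A)-selected, and stranded TruSeq libraries were sequenced as paired reads of 38 bases on a NextSeq 500. The authors quantified reads with kallisto 0.46.1 against Ensembl mouse transcripts on GRCm38 and deposited TPM per gene, and how transcripts were joined to genes was not given in the sources used here. The deposited TPM carry no read counts, so depth is unknown and no counting interval can be given. In their own work the authors tested with Sleuth, for which counts were not used here.

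The table held 34456 rows, of which 129 repeated another row and were collapsed, leaving 34327 genes. A total of 62 genes tested had the same values as another symbol in every library. Groups were taken from the labels. Genes with a mean of at least 1 TPM over the 8 gel libraries were tested on log2(TPM + 1) with limma 3.58.1 in R 4.3.3, with 1 mean per condition, a variance trend over mean level and adjustment by Benjamini-Hochberg, and called at an adjusted p-value under 0.2. High-collagen gels were compared in the same fit and TC plates in a fit of all 12 libraries. A fit after median-ratio rescaling stood beside each. The replicate correlation of log2 values was 0.981 for untreated and 0.985 for IL-4 low-collagen libraries.

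The comparison, its members and the 43 gene lists (35 of function and 8 of markers) were chosen with earlier results of these data known. Genes named were the 12 largest rises and falls called on both scales without overlap, up to 4 called members of each list with a mean of at least 5 TPM, the IL-4 receptor pathway and 8 genes the study names, the 5 largest differences of response in each direction, and the 10 largest gains and losses in TPM. Others were named after their values were seen. A total of 17 alternatives were run. On simulated data of 11852 genes, 84% of genes changed 2-fold and 97% of those changed 4-fold were called, with 19.9% of calls false, for the low-collagen comparison. The simulation changed only 200 genes and drew noise independently for each gene. Far more genes were called in the data, so these shares do not carry over to the real calls. Shared reads were gauged by words of 31 bases in GENCODE transcripts, which are not the Ensembl release that the authors indexed. Promoters came from RefSeq on GRCm38.p6. Tables and plots were made with pandas 2.3.3, matplotlib 3.10.9 and numpy 2.4.6 in Python 3.11.15.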

Additional observations from a re-analysis of the deposited data

Results flagged for a closer look

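The genes below were taken from the largest rises and falls, the 8 genes the study names and the 5 largest differences of response in each direction, and were singled out where the test of the difference between IL-4 effects, low-collagen gels minus the other culture, gave an adjusted p-value under 0.2 by limma. Against TC plates only the largest differences are given. Values are differences in log2 fold change of TPM + 1.

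Against high-collagen gels, the rises of Ccl24 (2.94, adjusted p-value 0.191 by limma), Retnla (2.72, 0.0319), Ear2 (2.63, 0.0546), Fn1 (1.91, 0.0147), Chil3 (1.49, 0.0632), AA467197 (1.27, 0.0919), Rnase2a (1.24, 0.0919) and Msx3 (1.21, 0.153) were larger in low-collagen gels. Ear2, a ribonuclease of the same family as Rnase2a, was listed at 0 in both untreated low-collagen libraries and at 22.3 and 31.6 TPM with IL-4, against 0.616 and 0.257 and then 5.50 and 5.18 TPM in high-collagen gels, and 40.2% of its words occur in Ear1. Ccl24 was 2.12 and 0.353 and then 3.44 and 5.92 TPM in high-collagen gels. Thbs1 (−1.15), Slco2b1 (−0.98) and Gpr162 (−1.01) fell further in low-collagen gels. The remaining 4 were symbols of predicted genes, namely 1700047I17Rik2 (−3.01), whose words all occur in Fam177a, Gm14749 (−1.25), AC159290.1 (−1.14) and Gm12573 (2.20). After rescaling, Thbs1, Gm14749 and AC159290.1 were no longer called. With 1 low-collagen library left out, Retnla, Fn1, Gpr162 and 1700047I17Rik2 were called in all 4 fits. Ear2 was lost without IL-4 replicate 2, Chil3 and AA467197 without either IL-4 replicate, Rnase2a in 3 of the 4 fits, and Ccl24, Msx3, Thbs1, Slco2b1, Gm14749, AC159290.1 and Gm12573 in all 4.

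Against TC plates, the log2 fold change with IL-4 was higher in low-collagen gels for Retnla (7.89, 0.000179 by limma) and AA467197 (4.41, 1.16e-05). It was also higher for the pseudogenes or predicted genes Usf2-ps1 (4.58), Gm15421 (4.36) and Gm10335 (3.94). In low-collagen gels the log2 fold changes of Usf2-ps1, Gm15421 and Gm10335 were 0.56, 1.74 and 2.24, so their differences include falls on plates. The log2 fold change was lower in low-collagen gels for Ms4a4a (−4.15, 0.000165 by limma). The untreated level of Ms4a4a was 168 and 219 TPM in low-collagen gels and 6.14 and 3.17 TPM on plates. Lower values were also found for Gm11518 (−9.24 ± 3.77, SE), Gm14303 (−5.56 ± 2.55), Gm12396 (−4.73 ± 2.14) and Dynlt1-ps1 (−4.66 ± 1.86). Their adjusted p-values were 0.155, 0.199, 0.194 and 0.147 by limma. All words of Gm11518, Gm14303 and Gm12396 occur in Rpl27, Rps29 and Psenen, respectively. Of the words of Gm10335, Usf2-ps1 and Gm15421, 92.9%, 87.2% and 70.3% occur in Rpl23a, Usf2 and Rpl22l1, so reads may be shared. Gm14303 and Gm12396 were no longer called after rescaling. With 1 library left out, Retnla, AA467197, Ms4a4a and Usf2-ps1 were called in all 4 fits and the other 6 were lost in 1 or more.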

How the results depend on the processing

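The number of genes higher with IL-4 was 1567, and it was 2791 with median-ratio rescaling, 2506 with the GC and length correction, 951 at an adjusted p-value under 0.05, 325 with a 2-fold change required as well, and 1222 to 1405 with 1 library left out. The number lower was 4784, and it was 2497 with rescaling, 2718 with quantile normalization, 2704 with the GC and length correction, 2705 at 0.05, 491 with 2-fold, and 2963 to 4732 with 1 library left out, the lowest without IL-4 replicate 2. On both scales 1563 were higher (951 at 0.05, 321 with 2-fold, 1222 to 1403 with 1 library left out) and 2497 lower (1309, 302, and 1777 to 2263). The genes at least 2-fold higher and lower on both scales numbered 316 to 353 and 301 to 364 with 1 library left out. The count of 43 genes with a different response in high-collagen gels was 66 without the filter, 26 without the trend, 7 at 0.05, 24 with 2-fold, 97 with all 12 libraries, and 15 to 45 with 1 library left out. The count of 3319 against TC plates was 1220 at 0.05, 480 with 2-fold, and 2377 to 3546 with 1 library left out.

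Whether the replicate numbers pair the samples is not given in the labels. Deviations of same-numbered low-collagen libraries correlated at −0.124, and 1 such correlation cannot decide it. With the replicate number as a block, 1520 genes were higher and 4582 lower, 18 differed from high-collagen gels and 3100 from TC plates. With the numbers crossed, an alternative chosen after seeing the data, 1654 were higher, 5033 lower and 50 different from high-collagen gels.

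Among named genes with a call in low-collagen gels on one scale or under an alternative, these changed sign: Il4ra (0.000698 with rescaling), Tyk2 (0.16 with rescaling, 0.17 with the GC and length correction), Ptpn11 (0.15 with that correction) and Ctsd (0.0354 with rescaling). With 1 library left out, 1700047I17Rik2, Gm14303, Usf2-ps1 and Gm15421 ran from −0.34, −0.29, −0.26 and −0.29 to 0.083, 0.11, 1.38 and 3.76, and Tyk2 from −0.17 to 0.07. Of 190 named genes, some of which had no call, 189 stayed on their side of the threshold with a pseudocount of 0.1, 183 with rescaling, 176 to 180 with 1 library left out, 171 at an adjusted p-value under 0.05 and 117 with 2-fold required. Many of the 190 were named because they were called on both scales, so their count with rescaling was largely fixed by that choice. Among all genes tested, 2287 of 4784 called lower in TPM were not called lower after rescaling. Quantile and GC corrections were run on TPM only. The cause of these shifts was not tested. With 2 libraries a group and no depth, small changes are not resolved.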
